A study of Mus musculus with 6 samples.

Results

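The 9 genes through which endothelial cells (ECs) take up and handle lipids (Cd36, Fabp4, Fabp5, Gpihbp1, Lpl, Vldlr, Scarb1, Pparg and Angptl4) were followed in mouse choroid ECs at a pair of postnatal ages. They were chosen by symbol and make up 9 of the 22026 gene symbols in the data. RNA was sequenced from VE-Cadherin-positive cells sorted from the RPE/choroid of 129/B6 mice at postnatal day 5 (P5) or 30 (P30), in 3 separate sorts for each age, and each sort pooled 7 animals. The paper's methods name the strain and both sexes with the P30 animals, and neither with the P5 animals. The labels name no transgene or drug treatment at either age. Both ages received the same labelling antibody before the eyes were taken, but the dose per animal was lower at P5. The dose per body weight is not given. The P5 mice were anaesthetized by hypothermia, which the methods do not state for P30. Effects of dose and anaesthesia therefore cannot be told apart from age. Pooling means that the spread between isolations is a spread between pools of animals and not between single animals.

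Values are FPKM, in which read fragments are divided by transcript length and scaled per sample, here by the upper quartile, so that levels can be compared between genes. Differences between ages are P30 minus P5 in mean log2(FPKM + 1), which understates the change of genes with a low FPKM. They were tested with limma for the 12481 genes whose mean FPKM reached 5 at either age. A gene was called when its Benjamini-Hochberg adjusted p was under 0.01 and its mean FPKM + 1 differed by 2-fold or more. The median difference over all genes tested was -0.10 on the log2 scale. No read counts entered the comparison, and the sequencing depth behind each isolation is unknown.

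All 8 genes of an endothelial marker list were detected in every isolation, with a summed FPKM between 18049 and 18522 at P5 and between 24631 and 29965 at P30. Within this list the genes differed. Plvap, Emcn, Kdr and Tie1 were higher in all P30 isolations than in all P5 isolations. Of these, only Plvap, which encodes the fenestral diaphragm protein, was called. Cdh5, which encodes VE-Cadherin itself, was at 2971 ± 95.4 at P5 and 1885 ± 52.4 at P30. The endothelial genes named here fall outside the naming rule given with the processing. Markers of other cells were also present and differed between isolations. The summed FPKM of 8 RPE markers was between 68.3 and 149 at P5 and between 503 and 3854 at P30, lowest in P30 replicate 3. That of 7 pericyte markers was between 479 and 1795 at P5 and between 1886 and 6520 at P30, highest in P30 replicate 2. That of 8 macrophage markers was between 659 and 942 at P5 and between 276 and 726 at P30. Of these 8, 4 were called higher at P5, against 5.82% of all genes tested. Lyz2 was higher by mean at P30 (204 at P5 and 254 at P30), and the ages overlapped. Of 8 adipocyte markers, 7 (Adipoq, Plin1, Cidec, Lep, Cfd, Retn and Adig) were listed at 0 in all 6 isolations.

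Capillary ECs are the first cells to meet the triglyceride and cholesterol carried in plasma. Lipoprotein lipase, made mainly by parenchymal cells, is carried to the capillary lumen and held there by the EC protein GPIHBP1, where it releases fatty acids from triglyceride-rich lipoproteins, and ANGPTL4 inactivates it. Fatty acids are then taken up with the help of CD36 and bound inside the cell by FABP4 and FABP5, whereas SR-BI (Scarb1) and the VLDL receptor handle lipoprotein particles and their cholesterol. PPARγ (Pparg) is a fatty acid-activated nuclear receptor whose known target genes include Cd36, Fabp4 and Angptl4. In the outer eye, the choroid supplies the RPE and photoreceptors with lipids, and mice lacking the VLDL receptor are known for vessels that grow beneath the retina.

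Lpl was the only one of the 9 genes that was called between ages. Of the 8 genes that entered the test, 1 was called higher at P30, against 5.89% of all genes tested, and 0 were called higher at P5, against 5.82%. The ages did not overlap in 4 of the 8 (Lpl, Scarb1, Fabp4 and Pparg), against 55.1% of all genes tested. In all 4 the P30 isolations were the higher ones, a pattern seen in 22.0% of all genes tested, while the P30 isolations were the lower ones in 0 of the 8, against 33.0%. The median difference of the 8 genes was 0.40 on the log2 scale. At an adjusted p under 0.05 without a fold limit, 4 of the 8 were higher at P30, against 16.1% of all genes tested, and 0 of the 8 were higher at P5, against 22.4%. The 4 were again Lpl, Scarb1, Fabp4 and Pparg. The 9 genes were chosen with earlier results of these data known, so these shares are only a description. Beside the count of 0 called higher at P5, no gene of the 8 with a negative difference had an unadjusted p under 0.05 in limma.

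**Figure D1:**
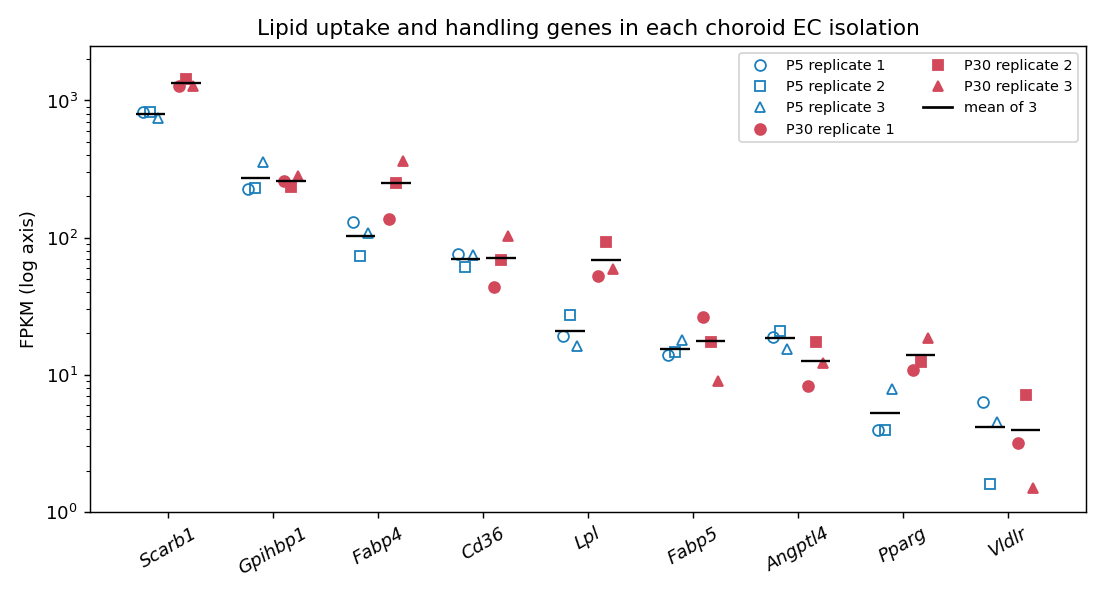
FPKM (log axis) of the 9 genes in the 3 P5 isolations (open symbols) and the 3 P30 isolations (filled symbols), with a black bar at the mean of each age and genes ordered by their mean over all 6 isolations. The P30 points lie above all P5 points for Scarb1, Fabp4, Lpl and Pparg, and the ages overlap for the other 5 genes.

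The lipase and its endothelial anchor behaved differently between ages. Lpl, the lipase (chromosome 8, 71404390 to 71431347 of mm9, plus strand), had an FPKM of 19.1, 27.4 and 16.2 in P5 replicates 1, 2 and 3 and of 52.15, 93.6 and 58.9 in P30 replicates 1, 2 and 3. The lowest P30 isolation was thus well above the highest P5 isolation. Lpl rose from 20.9 ± 5.83 to 68.2 ± 22.2 (SD, n = 3), a 3.16-fold difference in mean FPKM + 1 (log2 difference 1.65, SE 0.27, adjusted p = 0.00381 from limma). The call was lost without P5 replicate 1 or without P5 replicate 3 (adjusted p = 0.0178 and 0.0206 from limma). The log2 differences were then 1.60 and 1.49. Calls over all genes also fell, from 735 higher at P30 and 726 higher at P5 with all isolations. They were 519 and 427 without P5 replicate 1, and 396 and 297 without P5 replicate 3. The Lpl call was also lost when all 22026 genes were tested without the FPKM minimum (adjusted p = 0.0317 from limma). The summed pericyte and fibroblast markers had the same order over the P30 isolations as Lpl, with replicate 2 highest and replicate 1 lowest, but not over the P5 isolations, and their part in the difference was not tested. Macrophages also make this lipase, and their summed markers were lowest in P30 replicate 2, where Lpl was highest. Their part in the Lpl level was not tested.

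Gpihbp1, the anchor (chromosome 15, 75427088 to 75428642, plus strand), had an FPKM of 226, 231 and 358 in the P5 isolations and of 261, 232 and 281 in the P30 isolations. The ages overlapped, and P5 replicate 3 was the highest of the 6. Its mean was 272 ± 74.6 at P5 and 258 ± 24.6 at P30 (log2 difference -0.04, 95% interval -0.48 to 0.39, adjusted p = 0.869 from limma), so that a difference of 2-fold lay outside the interval in either direction. The ratio of Gpihbp1 to Lpl within a sample, taken as a ratio of FPKM + 1 as were all ratios here, was 11.3, 8.15 and 20.9 at P5 and 4.92, 2.47 and 4.72 at P30. Every P30 ratio was lower than every P5 ratio, and the mean log2 ratio fell by 1.69. The exact permutation test over samples (two-sided) gave p = 0.1, which 3 against 3 cannot go below, and an adjusted p of 0.3 over the 4 ratios compared.

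Angptl4, the secreted inhibitor of the lipase (chromosome 17, 33910695 to 33918520, minus strand), had an FPKM of 18.8, 20.9 and 15.5 at P5 and of 8.28, 17.3 and 12.15 at P30. P30 replicate 2 lay within the P5 range and the other P30 isolations lay below it. The difference did not pass the test (18.4 ± 2.75 against 12.6 ± 4.55, log2 difference -0.56, 95% interval -1.23 to 0.12, adjusted p = 0.163 from limma). P30 replicate 2 was also the isolation with the highest pericyte and smooth muscle sums, and the part of these cells in the Angptl4 level was not tested.

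Scarb1 was by far the most abundant of the 9 genes at both ages. SR-BI takes up cholesterol esters from high-density lipoprotein, and its gene lies on chromosome 5 (125757457 to 125821464, minus strand). Its FPKM was 831, 818 and 743 at P5 and 1286, 1443 and 1277 at P30. The isolations of one age lay within 1.13-fold of each other at most, the narrowest spread of the 9 genes, and the ages were far apart. Scarb1 had 797 ± 47.6 at P5 and 1335 ± 93.3 at P30 (log2 difference 0.74, SE 0.10, 95% interval 0.51 to 0.97, adjusted p = 0.00160 from limma). It therefore passed the limit on adjusted p, with the smallest adjusted p of the 8 genes tested, but at 1.67-fold not the limit of 2-fold, and was not called. The adjusted p from limma was above 0.01 without P5 replicate 2 (0.0119), without P5 replicate 3 (0.0102), without the FPKM minimum (0.0147) and centred on endothelial markers (0.0141). Quantile normalization gave a log2 difference of 0.47, and centring on endothelial markers one of 0.45. At P5, its mean FPKM was higher than that of 98.1% of the genes tested, and at P30 higher than that of 98.9%.

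Vldlr, the receptor for very low-density lipoprotein (chromosome 19, 27290974 to 27328721, plus strand), was at the other end of the range. It had an FPKM of 6.28, 1.60 and 4.54 at P5 and of 3.19, 7.17 and 1.48 at P30. The ages overlapped fully, and isolations of the same age differed by up to 3.92-fold at P5 and 4.84-fold at P30. With means of 4.14 ± 2.37 and 3.95 ± 2.92 it was below the FPKM minimum of 5 and was not tested in limma. The log2 ratio of Vldlr to Scarb1 was -7.40 ± 0.79 at P5 and -8.25 ± 0.77 at P30 (exact permutation test, two-sided, p = 0.3, adjusted p = 0.3).

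Cd36 and Fabp4, which act one after the other in fatty acid uptake, were at similar levels at P5 and apart at P30. Cd36 (chromosome 5, 17287508 to 17394777, minus strand) had an FPKM of 76.1, 60.7 and 74.1 at P5 and of 43.3, 69.0 and 102 at P30. The P5 values lay within the P30 range, and P30 replicates 1 and 3 were the lowest and the highest of the 6. The means were 70.3 ± 8.37 and 71.5 ± 29.5 (log2 difference -0.05, 95% interval -0.72 to 0.62, adjusted p = 0.899 from limma). Without P30 replicate 1 the log2 difference was 0.26, and without P30 replicate 3 it was -0.35. The log2 ratio of Cd36 to Scarb1 was -3.49 ± 0.22 at P5 and -4.29 ± 0.62 at P30, and the ages overlapped (exact permutation test, two-sided, p = 0.2, adjusted p = 0.3).

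Fabp4, a cytosolic fatty acid binding protein found in adipocytes, macrophages and many capillary ECs (chromosome 3, 10204347 to 10208576, minus strand), had 129, 73.6 and 107 at P5 and 136, 248 and 363 at P30. All P30 isolations were higher than all P5 isolations, but P30 replicate 1 only narrowly so. The mean was 103 ± 27.9 at P5 and 249 ± 113 at P30, which is 2.40-fold in mean FPKM + 1, and the difference did not pass the limit of 0.01 (log2 difference 1.19, SE 0.36, 95% interval 0.35 to 2.02, adjusted p = 0.0349 from limma). Without P30 replicate 1 it did, at a log2 difference of 1.57 (adjusted p = 0.00693 from limma). Without any other 1 isolation the adjusted p from limma was above 0.05, between 0.0505 without P5 replicate 1 and 0.114 without P5 replicate 2, with the lowest log2 difference (0.86) without P30 replicate 3. Of the 8 adipocyte markers, 7 were listed at 0 in every isolation, and the other, Lipe, rose from 35.8 ± 8.74 to 106 ± 24.3. The macrophage sums were lower at P30 than at P5 by mean (500 ± 225 against 830 ± 150), and the ages overlapped. The part of adipocytes and macrophages in the Fabp4 level was not tested.

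Fabp5, the epidermal member of the same protein family (chromosome 3, 10012548 to 10016607, plus strand), lies 187739 bases from Fabp4. It had 13.9, 14.6 and 17.9 at P5 and 26.2, 17.2 and 9.02 at P30. The P30 isolations lay on both sides of the P5 isolations (15.5 ± 2.15 against 17.5 ± 8.59, log2 difference 0.06, 95% interval -0.79 to 0.90, adjusted p = 0.911 from limma). P30 replicate 1 was the highest for Fabp5 and the lowest for Fabp4 and Cd36, and P30 replicate 3 was the reverse. The ratio of Fabp4 to Fabp5 in FPKM + 1 was 8.72, 4.78 and 5.73 at P5 and 5.05, 13.7 and 36.3 at P30. This ratio was higher in P30 replicates 2 and 3 than in any P5 isolation but not in P30 replicate 1, and the ages did not differ beyond the spread (log2 difference 1.13, exact permutation test, two-sided, p = 0.3, adjusted p = 0.3). The coding sequences of the 2 genes were identical at 61.4% of 409 aligned positions in the GENCODE transcripts, and their longest shared run was 12 bases. A processed copy of Fabp5 is annotated as the pseudogene Fabp5l2, and whether reads were shared between them was not examined.

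**Figure D2:**
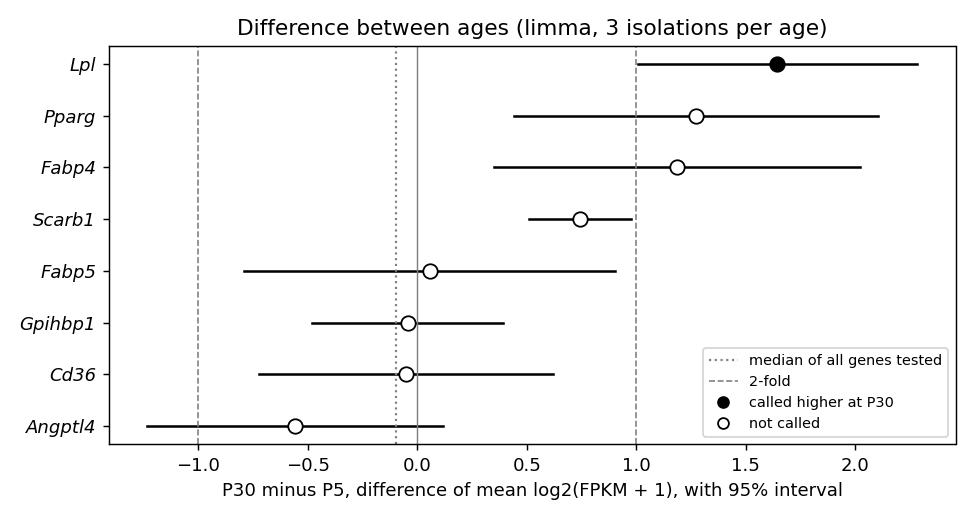
Difference between ages (P30 minus P5) in mean log2(FPKM + 1) for the 8 genes tested, with 95% intervals from limma, a filled point for the gene called higher at P30, dashed lines at 2-fold and a dotted line at the median of all genes tested (-0.10). The interval of Lpl lies above the 2-fold line, those of Pparg, Fabp4 and Scarb1 lie above 0, and those of Fabp5, Gpihbp1, Cd36 and Angptl4 include 0.

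Pparg was the third gene, with Fabp4 and Scarb1, that separated the ages without being called. The gene (chromosome 6, 115311239 to 115440419, plus strand) was at low levels, with an FPKM of 3.94, 3.97 and 7.92 at P5 and of 10.8, 12.4 and 18.6 at P30. The lowest P30 isolation was above the highest P5 isolation. Its mean was 5.28 ± 2.29 at P5 and 13.9 ± 4.13 at P30, or 2.38-fold in mean FPKM + 1 (log2 difference 1.27, SE 0.36, 95% interval 0.44 to 2.10, adjusted p = 0.0271 from limma). Its adjusted p from limma was above 0.05 without P5 replicate 1 (0.0867), P5 replicate 2 (0.0988) or P30 replicate 3 (0.0655). Of the PPARγ targets named above, which are not a full list, Fabp4 differed in the same direction as Pparg. Cd36 had similar means and Angptl4 was lower by mean at P30. Lpl (log2 difference 1.65) and Gpihbp1 (-0.04) were not placed in this comparison.

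PPARγ binds DNA together with a retinoid X receptor at 2 copies of AGGTCA with a base between them. In the RefSeq table of promoters (GRCm38.p6, 250 bases before to 50 bases after each start), 3 of the 9 genes have entries, Cd36 with a single window, Pparg with 3 and Vldlr with 2. Searched on both strands, the full repeat (AGGTCA, any base N, AGGTCA) was in 0 of these 6 windows and in 0.0396% of all 32851 windows. The single copy AGGTCA, which is part of the full repeat, was in 3 of the 6 windows and in 16.3% of all windows. The 3 stretches before the start that hold it are shown, because Cd36 is a known target and Pparg the receptor gene. The copy is in capitals, and on the reverse strand it reads TGACCT. The Cd36 stretch is chr5:17836072-17836146 on the minus strand, and the Pparg stretches are chr6:115361069-115361143 and chr6:115362293-115362348 on the plus strand.
Cd36: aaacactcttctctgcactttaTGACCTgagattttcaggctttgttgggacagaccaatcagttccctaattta
Pparg, first start: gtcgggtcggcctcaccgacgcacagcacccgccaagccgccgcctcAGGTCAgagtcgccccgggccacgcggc
Pparg, second start: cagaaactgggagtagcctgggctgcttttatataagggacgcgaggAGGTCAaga
The copy begins 228 bases before the Cd36 start and 28 and 9 bases before the Pparg starts. FPKM are given per gene, so that the starts of Pparg cannot be compared between ages.

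Ordered by level (FPKM), the 9 genes kept much of their rank between ages. At P5 the order was Scarb1, Gpihbp1, Fabp4, Cd36, Lpl, Angptl4, Fabp5, Pparg and Vldlr. The isolations of Fabp4 and Cd36 overlapped, as did those of Lpl and Angptl4, of Angptl4 and Fabp5, and of Pparg and Vldlr, while Scarb1, Gpihbp1 and Fabp4 were apart from each other. At P30 the order was Scarb1, Gpihbp1, Fabp4, Cd36, Lpl, Fabp5, Pparg, Angptl4 and Vldlr. Here Gpihbp1 and Fabp4 overlapped, with means 1.04-fold apart against 2.63-fold at P5. Cd36 and Lpl also overlapped at P30, with means 1.05-fold apart against 3.36-fold at P5. Lpl thus moved from beside Angptl4 to beside Cd36. The mean FPKM of Scarb1 was 2.94-fold that of the next gene at P5 and 5.17-fold at P30.

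Because the cells of other types in the isolations may differ between ages, each level (FPKM + 1) was also set against the geometric mean of the 8 endothelial markers in the same sample. This reference itself differed with age, with log2 differences from -0.66 for Cdh5 to 1.28 for Plvap. Centring on it moved the median log2 difference of all genes tested from -0.10 to -0.39. In bulk samples, fewer cells of a type and less RNA per cell cannot be told apart. Relative to these markers, Lpl was higher in all P30 isolations than in all P5 isolations (2.56-fold), and so were Scarb1 (1.37-fold) and, by a very narrow margin, Pparg (1.98-fold). With 5 in place of 1 added to each FPKM, the log2 difference of Pparg on this scale was 0.59 and not 0.98, and the ages overlapped (exact permutation p = 0.2). Angptl4 was lower in all P30 isolations (log2 difference -0.85). For these 4 genes the exact permutation test gave p = 0.1 (two-sided), which 3 against 3 cannot go below, and an adjusted p of 0.225 over the 9 genes. Fabp4 overlapped between ages on this scale (log2 difference 0.90, exact permutation p = 0.3), since P30 replicate 1 fell within the P5 range. Relative to Pecam1 alone, the log2 difference was 1.83 for Lpl, 1.46 for Pparg, 1.38 for Fabp4 and 0.93 for Scarb1. Angptl4 was at -0.37 relative to Pecam1 alone and the ages overlapped (exact permutation p = 0.5).

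**Figure D3:**
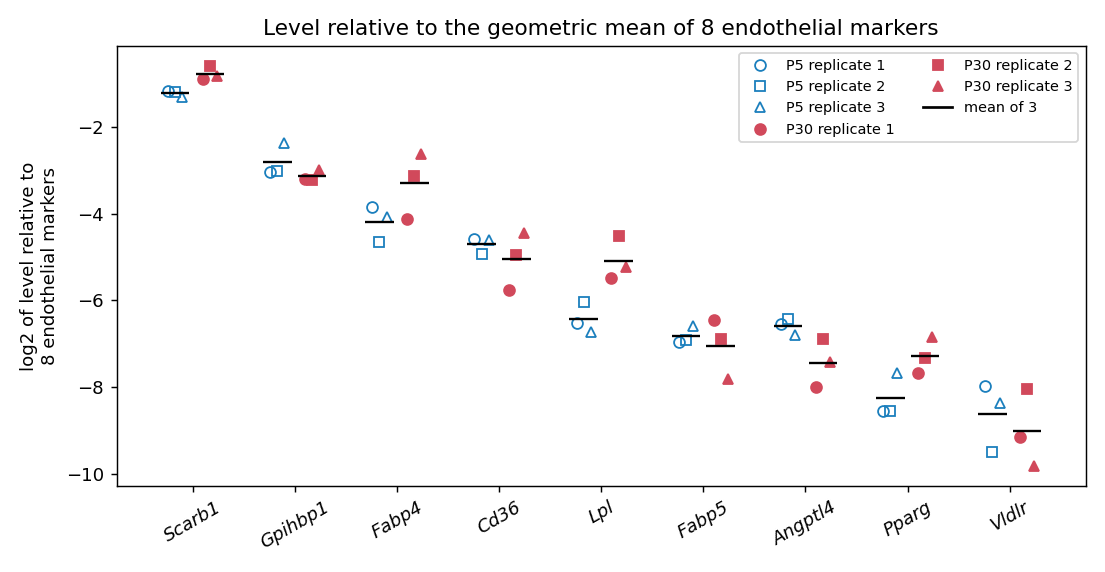
Log2 level of each of the 9 genes relative to the geometric mean of 8 endothelial markers in the same isolation, with open symbols for P5, filled symbols for P30 and a black bar at the mean of each age. Lpl, Scarb1 and Pparg lie higher in all P30 isolations than in all P5 isolations, Angptl4 lies lower, and the ages overlap for the other 5 genes.

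The P30 isolations differed among themselves more than the P5 isolations, with a median SD of log2(FPKM + 1) over all genes tested of 0.26 against 0.13. Scarb1 and Gpihbp1 varied least over the P30 isolations, with the highest value 1.13-fold and 1.21-fold the lowest. Cd36, Fabp4 and Pparg were all lowest in P30 replicate 1 and highest in replicate 3, with the highest value 2.36-fold, 2.66-fold and 1.72-fold the lowest. The summed RPE markers had the opposite order, with 3854, 2139 and 503 in P30 replicates 1, 2 and 3, as had the photoreceptor and pigment cell markers. Fabp5 shared the order of the RPE markers, with its highest value 2.90-fold the lowest. The part of RPE RNA in these values was not tested. The endothelial sum differed by 1.22-fold over the same isolations.

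**Figure D4:**
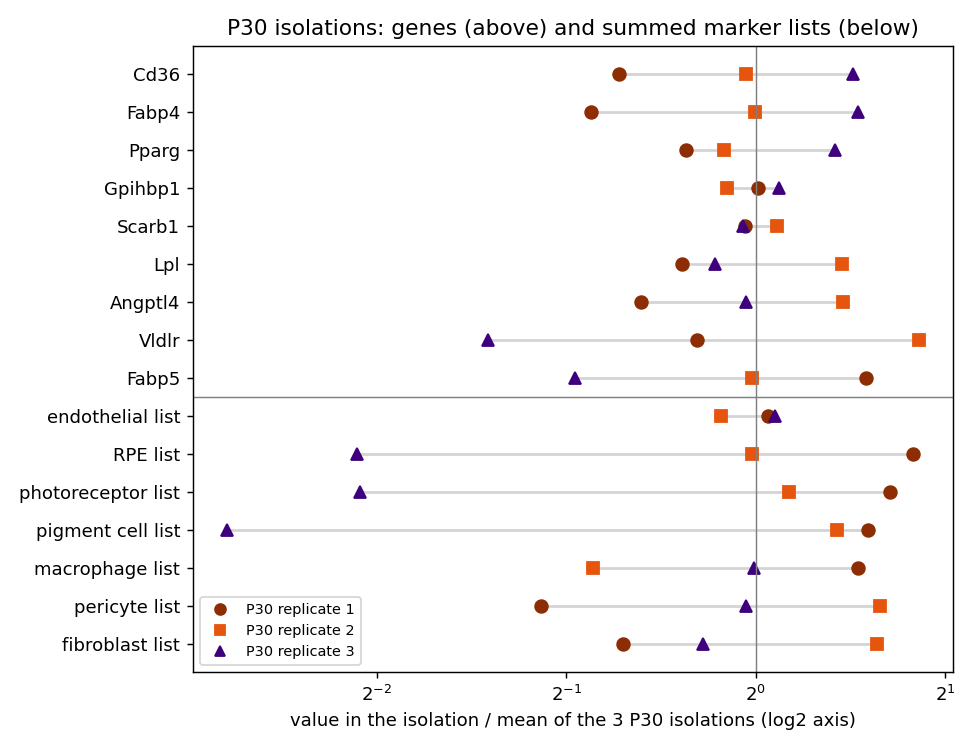
Value of each of the 9 genes (upper rows) and of the summed markers of 7 cell types (lower rows) in each P30 isolation, divided by the mean of the 3 P30 isolations (log2 axis). Cd36, Fabp4 and Pparg are highest in replicate 3, where RPE, photoreceptor and pigment cell markers are lowest, Lpl, Angptl4 and Vldlr are highest in replicate 2, where pericyte and fibroblast markers are highest, and Scarb1, Gpihbp1 and the endothelial markers lie close to 1.

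Beyond these 9, 110 other genes of lipid handling were taken in 6 lists by function, of which 79 entered the test. Of these, 13 were called higher at P30 (background 5.89%) and 2 were called higher at P5 (background 5.82%), with a median log2 difference of 0.18. P30 lay wholly above P5 in 29 of the 79, against 22.0% of all genes tested, and wholly below in 18, against 33.0%. The lists were chosen with earlier results of these data known, so these shares are only a description. The genes called higher at P30 were spread over 5 of the lists. The calls of Hilpda, Mylip, Cebpb, Pnpla2, Pltp and Aplnr held with each isolation left out in turn, whereas those of Lsr, Apoe, Apod, Mfsd2a, G0s2, Lipe, Cebpa, Nr1h2 and Msr1 were lost without at least 1 isolation. Over the P30 isolations, Lsr, Mfsd2a, Nr1h2, Lipe, Apoe and Pltp had the order of the RPE markers, with replicate 1 highest and replicate 3 lowest. For Apoe, P30 replicates 2 and 3 were nearly level, at 2217 and 2200. Mylip, Cebpb, Cebpa and Apod had the reverse of the RPE order, with replicate 3 highest and replicate 1 lowest. G0s2 had the order of the pericyte and fibroblast markers, and Hilpda and Pnpla2 had other orders. How many of all genes tested had these orders was not counted. The part of RPE cells, pericytes and fibroblasts in these differences was not tested. The count higher at P30 was 7 without P5 replicate 2 and 6 without P5 replicate 3, and the count higher at P5 was 1 without any 1 of the P5 isolations.

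**Figure D5:**
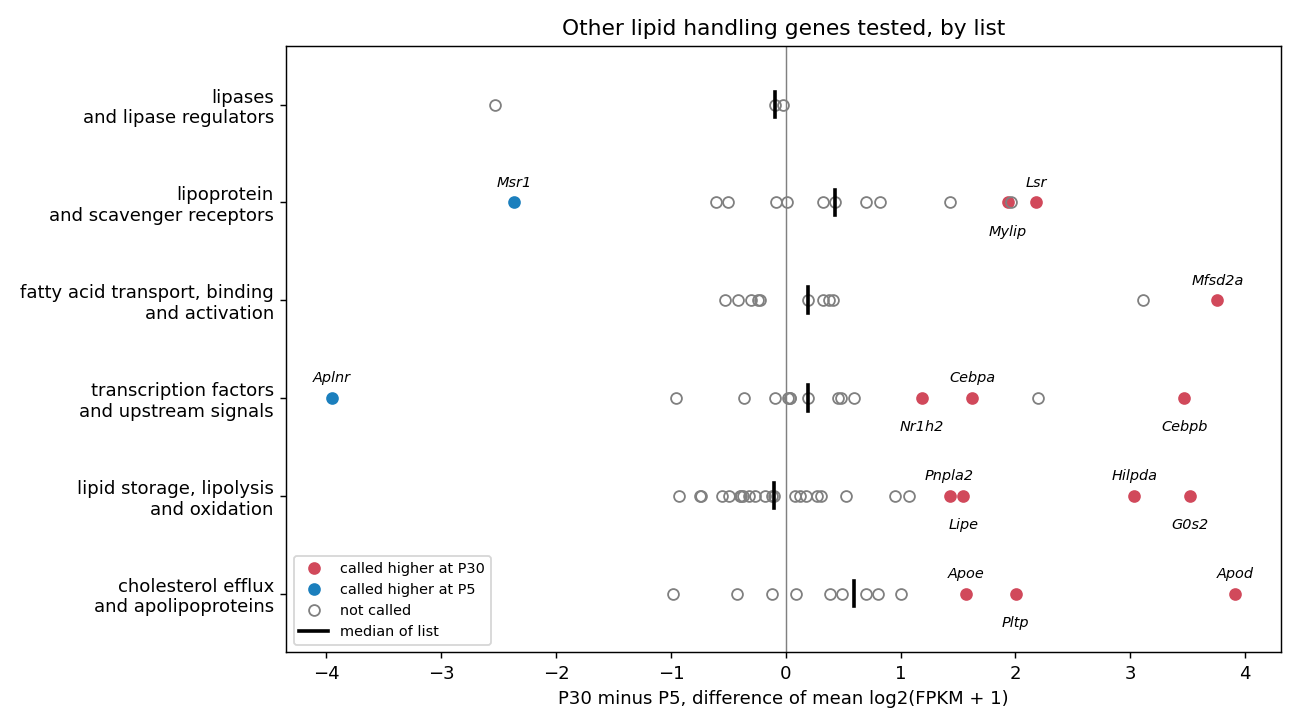
Difference between ages (P30 minus P5) in mean log2(FPKM + 1) of the 79 other lipid handling genes tested, by list, with filled red points for genes called higher at P30, filled blue points for genes called higher at P5, open points for genes not called and a black bar at the median of each list. The medians lie between -0.10 and 0.59, and the 13 genes called higher at P30 lie to the right of most of their lists.

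Among 25 genes of lipid storage, lipolysis and oxidation that were tested, 4 were called higher at P30 (background 5.89%) and 0 higher at P5 (background 5.82%). The median log2 difference was -0.10. Hilpda, a lipid droplet protein induced by hypoxia and listed under its older Rik symbol, had an FPKM of 82.3, 76.8 and 69.1 at P5 and of 671, 553 and 672 at P30 (log2 difference 3.04, SE 0.12, adjusted p = 3.34e-05 from limma). G0s2, an inhibitor of adipose triglyceride lipase, had 8.87, 2.69 and 4.06 at P5 and 35.1, 146 and 51.5 at P30 (log2 difference 3.52, SE 0.56, adjusted p = 0.00330 from limma). That lipase itself, Pnpla2, rose from 91.3 ± 14.5 to 246 ± 22.5, and the hormone-sensitive lipase Lipe from 35.8 ± 8.74 to 106 ± 24.3. Lipe was also the only one of the 8 adipocyte markers above 0. Beside the count of 0 called higher at P5, 6 genes of the list with a negative difference had an unadjusted p under 0.05 in limma. Among these, the mitochondrial fatty acid oxidation enzyme Hadha had 207 ± 4.45 at P5 and 147 ± 7.81 at P30, and the carnitine carrier Slc25a20 had 105 ± 3.00 and 71.2 ± 4.10. Both passed the limit on adjusted p (0.00565 and 0.00572 from limma) but not the 2-fold limit, and they were named after their values had been seen.

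Of 13 lipoprotein and scavenger receptor genes tested, 2 were called higher at P30 (background 5.89%) and 1 higher at P5 (background 5.82%). The median log2 difference was 0.43. Mylip, the ubiquitin ligase that marks the LDL and VLDL receptors for degradation, rose from 139, 126 and 125 to 424, 473 and 617 (log2 difference 1.93, SE 0.15, adjusted p = 0.000218 from limma). Lsr, a receptor for lipolysed lipoproteins that is also a tricellular junction protein of epithelia, rose from 19.8 ± 10.4 to 86.1 ± 30.0, with an adjusted p of 0.00962 from limma that lay just inside the limit. Msr1, a scavenger receptor of macrophages, fell from 29.9 ± 3.45 to 5.86 ± 4.50, and 4 of the 8 macrophage markers were also called higher at P5. Acvrl1, the receptor kinase ALK1 that also binds LDL, had the highest mean of the list, with 644 ± 120 at P5 and 1034 ± 106 at P30, and was not called (adjusted p = 0.0130 from limma).

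Of 11 genes for fatty acid transport, binding and activation that were tested, 1 was called (background 11.7% in either direction). The median log2 difference was 0.19. This was Mfsd2a, a transporter of lysophosphatidylcholine carrying docosahexaenoic acid, with 6.71, 1.02 and 1.74 at P5 and 75.0, 60.3 and 21.6 at P30 (log2 difference 3.76, SE 0.62, adjusted p = 0.00368 from limma). Mfsd2a is known both in barrier-forming ECs and in the RPE, and its P30 isolations had the same order as the RPE markers, whose part in this rise was not tested. Dbi, which encodes the acyl-CoA binding protein, was the most abundant gene of the list, with 256 ± 15.0 at P5 and 209 ± 37.1 at P30 (adjusted p = 0.133 from limma).

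Of 15 transcription factors and upstream signals tested, 3 were called higher at P30 (background 5.89%) and 1 higher at P5 (background 5.82%). The median log2 difference was 0.20. Cebpb and Cebpa, CCAAT/enhancer binding proteins that act with PPARγ in adipocytes, both rose. Cebpb had 69.5, 57.2 and 56.2 at P5 and 470, 606 and 1112 at P30 (log2 difference 3.47, SE 0.29, adjusted p = 0.000293 from limma), and Cebpa rose from 15.3 ± 2.79 to 49.6 ± 10.5. Nr1h2, the oxysterol receptor LXRβ, rose from 147 ± 12.7 to 339 ± 66.8. Aplnr, the apelin receptor, fell from 1140, 1318 and 1505 to 82.3, 83.9 and 85.05 (log2 difference -3.95, SE 0.12, adjusted p = 2.64e-05 from limma), and it was the gene with the highest mean of its list.

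Of 12 cholesterol efflux and apolipoprotein genes tested, 3 were called higher at P30 (background 5.89%) and 0 higher at P5 (background 5.82%). The median log2 difference was 0.59. Pltp, the phospholipid transfer protein, rose from 424, 385 and 291 to 1763, 1500 and 1160 (4.01-fold in mean FPKM + 1, adjusted p = 0.000441 from limma). Apod rose from 5.73 ± 4.85 to 99.4 ± 63.1, and Apoe, the most abundant gene of the list, from 921 ± 411 to 2627 ± 726 (adjusted p = 0.00870 from limma). Abca1, which exports cholesterol to apolipoprotein acceptors and was named after its values had been seen, had 239 ± 11.9 at P5 and 122 ± 23.6 at P30. Its adjusted p from limma was 0.00233, at a difference just short of 2-fold. Of the 3 lipase and lipase regulator genes tested, 0 were called (background 11.7% in either direction), with a median log2 difference of -0.09. Sel1l, which aids the folding of LPL in the secretory pathway, had the highest mean (147 ± 3.92 at P5 and 138 ± 5.47 at P30). Of these 3, Lipc, the hepatic lipase, named after its values had been seen, had an unadjusted p under 0.05 (14.0 ± 3.55 against 2.21 ± 2.43, adjusted p = 0.0187 from limma). Lipg, the endothelial lipase, also named after its values had been seen, had 0.63, 2.05 and 0.93 at P30 and was listed at 0 in each P5 isolation, below the minimum for the test.

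The genes with the most similar pattern over the 6 isolations were taken by the root mean square difference in centred log2(FPKM + 1), as a description. Those nearest to Scarb1 were Fuz, Wfs1 and Ankrd12, at 0.0360, 0.0361 and 0.0425. Nearest to Lpl were Fbxo27, Fhl1 and Polg2 (0.0805 to 0.162), and nearest to Pparg were Mmp17, Syt15 and Leprel1 (0.197 to 0.229). Fabp4 was closest to Lmx1b, Olfml3 and Dact3 (0.194 to 0.222). Cd36 was closest to Dync1i1, Mfsd8 and Chic2, Gpihbp1 to Micall1, Plcl2 and Gimap9, Fabp5 to Hspe1, Tufm and Zfp94, Angptl4 to Fam118a, 1810030N24Rik and Fig4, and Vldlr to Tdg, Samd5 and Abi3bp.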

How the data were processed

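Choroid ECs were labelled by an antibody to VE-Cadherin injected into the living mouse, sorted by flow cytometry and sequenced, in 3 isolations at P5 and 3 at P30. Groups were taken from the labels. The authors checked reads with FastQC, aligned them to mm9 with TopHat at default settings, and computed the deposited FPKM per gene with Cufflinks, with corrections for GC content and upper-quartile normalization. The submitters' processing notes also name CASAVA 1.8.2. Other versions and the gene annotation are not given in the sources used here. Scaling by the upper quartile ties each level to that of other genes in the sample, so a difference is relative to them. No counts were used, so depth is unknown and no count model was run.

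From the deposited FPKM, log2(FPKM + 1) was tested between ages with limma 3.58.1 (R 4.3.3, empirical Bayes with a mean trend), keeping genes whose mean FPKM reached 5 at either age. Adjusted p-values are Benjamini-Hochberg over all genes tested. The fit was tested on simulated data, with the same spread at both ages and no cells of other types. Changes were planted only in genes with a mean log2(FPKM + 1) above 5, so lower genes were not covered. Ratios between genes and levels relative to endothelial markers were compared by exact permutation over samples (two-sided, scipy 1.17.1, with numpy 2.4.6, pandas 2.3.3 and Python 3.11.15). Nothing in the labels says whether isolations of an age were separate on the day of preparation, so p-values measure the spread between these samples, which may be partly technical.

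All 9 genes were named. In each of the 6 pathway lists, called genes were named, up to 4 per direction by the size of the difference, with the gene of highest mean FPKM. For each of the 9, the 3 genes of closest pattern were named. Genes named outside this rule are marked in the text. The 9 genes and the lists were chosen with earlier results of these data known. Adgre1, Angptl8 and Hilpda were matched by older symbols through RefSeq synonyms. Coordinates are from GENCODE M1 on mm9, matched by symbol for all 9 genes, and none overlaps another annotated gene. Promoter sequences are from RefSeq (GRCm38.p6). Alternatives changed the pseudocount, the filter, the trend, the normalization, the sample weights, the call limits and the samples.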

Additional observations from a re-analysis of the deposited data

How the results depend on the processing

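Lpl was called in 15 of 18 settings, with a log2 difference between 1.36 and 1.85. Lpl, Fabp4, Scarb1, Pparg and Angptl4 kept their direction in all 18. The number of the 9 genes called higher at P30 was 0 without the FPKM minimum, 4 at an adjusted p under 0.05 without a fold limit, and 0 to 2 with 1 isolation left out, with 0 without P5 replicate 1 or 3 and 2 without P30 replicate 1. Cd36 reversed to 0.14 with sample weights, 0.0071 with quantile normalization and 0.0342 when centred on the sample median, an alternative chosen after seeing the data, and ranged from -0.35 to 0.26 with 1 isolation left out. Fabp5 was -0.23 when centred on endothelial markers and -0.28 to 0.44 with 1 isolation left out. Gpihbp1 was 0.0871 with sample weights, 0.0422 when centred on the sample median and -0.16 to 0.17 with 1 isolation left out. Relative to Pecam1 alone, Cd36 was 0.14, Fabp5 0.24, Gpihbp1 0.14 and Vldlr 0.0859, and Angptl4 was -0.37. With 1 isolation left out, levels relative to the 8 endothelial markers ranged from -0.64 to 0.0117 for Cd36, -0.53 to 0.15 for Fabp5 and -0.87 to 0.0151 for Vldlr. The cause of these reversals was not tested.

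For the other lipid genes, the count higher at P30 (13) was 4 without the minimum, 26 at 0.05 without a fold limit and 6 to 13 with 1 isolation left out. The count higher at P5 (2) was 1 without the minimum, 1 without the trend, 6 centred on endothelial markers, 11 at 0.05 without a fold limit and 1 to 3 with 1 isolation left out. Of all genes, 735 were called higher at the later age and 726 at the earlier. These counts were 242 and 296 without the minimum, 2011 and 2794 at 0.05 without a fold limit, and 396 to 849 and 291 to 754 with 1 isolation left out. Centring on endothelial markers gave 1390 higher at P5, moved the median of all genes from -0.10 to -0.39 and the share of calls higher at P30 from 50.3% to 26.9%. Without the minimum, which tests more genes, more of them near 0, the median was 0 and this share 45.0%.

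Same-numbered isolations did not deviate together (correlations -0.06, -0.09 and -0.03), so the values gave no sign of pairing by number. With 3 isolations per age, these correlations cannot show whether isolations were prepared in pairs. With the replicate number as a block, 1 of the 9 genes was called higher at P30, the other lipid genes gave 12 higher at P30 and 1 higher at P5, and all genes gave 585 and 524. A block leaves a mean difference as it is in this balanced design, and the exact p of the Gpihbp1 to Lpl ratio (-1.69) was 0.25 over pairs, the smallest that 3 pairs allow, against 0.1 without the block.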
